A study of Mus musculus with 4 samples.

Results

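The miR-297, miR-466, miR-467 and miR-669 families are rodent microRNAs (miRNAs) best known from a large cluster in an intron of Sfmbt2. Their members on the array were taken by name, as every non-control probe whose name starts with miR-297, miR-466, miR-467 or miR-669. This gave 41 of 696 miRNA probes. They were measured in mandibular molar tooth germs of untreated ICR mice, an outbred strain, at 4 stages, from embryonic day 11 (E11) through E12 and E14 to E16. Total RNA was labelled with Cy3 and hybridised to 1 Agilent miRNA array per stage. How many embryos stand behind each array is not stated in the labels. The number of arrays limits the precision, so no test between stages was possible and none is given. A value after ± is the stated error of the signal on its own array, or both errors combined for a difference, and holds no variation between embryos. Fewer cells of a type and less miRNA per cell cannot be told apart in such whole-tissue RNA.

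Sfmbt2 encodes a Polycomb-group protein and is imprinted in the mouse, with expression mainly from the paternal allele. Its intronic miRNA cluster arose by repeated duplication of a simple-repeat sequence, and its deletion is known to impair the placenta. A miRNA recognises target messenger RNAs mainly through its seed, bases 2 to 8 of the mature strand. Family members that share much of their sequence can therefore share targets, and can also hybridise to each other's probes.

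The name of the families does not settle where a member is made. In the RefSeq gene table (GRCm38.p6), used here for names and neighbours only, 72 miRNA genes lie within the span of Sfmbt2, and 71 of them carry the names of these 4 families. They were 29 miR-669, 23 miR-466, 14 miR-467 and 5 miR-297 genes. Of the 41 probes, 32 had all their gene copies inside Sfmbt2. Another 3 (miR-297a*, miR-466f-3p and miR-466f-5p) each had 3 of 4 gene copies inside it and the other on another chromosome. The last 6 (miR-466i, miR-466j, miR-466k, miR-467f, miR-467g and miR-669n) had their only gene on another chromosome. Of these, miR-466i lies within the span of Cdk13, miR-467f within Fxr2, miR-467g within Grk4 and miR-669n within Slc30a7. The label of Sfmbt2 intronic miRNAs therefore holds by location for 32 of the 41, and the results below are given by location.

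Mature sequences could be taken from RefSeq (GRCm38.p6) for 6 members, which were the 6 with genes outside Sfmbt2. They are shown because they show the simple repeats behind these names and because 3 of them were detected on every array. The array's miR-466i names no arm, and the sequence given is the table's miR-466i-3p. Capitals mark the seed.
miR-467f: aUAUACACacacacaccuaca
miR-466i-3p: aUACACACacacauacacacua
miR-467g: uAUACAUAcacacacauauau
miR-669n: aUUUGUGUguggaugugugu
miR-466j: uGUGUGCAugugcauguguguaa
miR-466k: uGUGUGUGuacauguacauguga

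These 6 fall into AC-rich and UG-rich sequences, and no seed is shared between any of them. The letters ACACACAC occurred in miR-467f, miR-466i-3p and miR-467g, and in 4 of the 1679 mature names of the RefSeq table (0.238%). The letters UGUGUGUG occurred in miR-669n and miR-466k, and in 7 of the 1679 (0.417%). Both were searched on the mature strand, with overlapping matches counted once per sequence. miR-467f and miR-466i-3p share a run of 13 bases and lie 5 single-base edits apart. miR-467g shares a run of 11 bases with each and lies 5 edits from miR-467f and 7 from miR-466i-3p, yet it was not detected on any array. miR-466j and miR-466k, which share 8-base runs with miR-669n, were likewise not detected, whereas miR-669n was detected at every stage.

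For comparison by sequence, 2 probes of other families among the 224 whose name matched 1 mature sequence also hold UGUGUGUG. They are miR-1187 and miR-574-5p.
miR-1187: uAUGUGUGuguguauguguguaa
miR-574-5p: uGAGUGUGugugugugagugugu

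The detection flag of the deposited files was set for 12 of the 41 members on at least 1 array, and for 272 of all 696 miRNA probes (39.1%). By stage 6, 10, 11 and 9 members were detected at E11, E12, E14 and E16. The corresponding shares of all probes were 30.0%, 31.8%, 35.8% and 35.9%. On all 4 arrays 6 members were detected, and 197 of the 696 probes (28.3%). None of the 3 miR-297 probes was detected at any stage. Of 14 miR-466 probes 5 were detected at least once, of 10 miR-467 probes 4, and of 14 miR-669 probes 3. By location 8 of the 32 probes with genes inside Sfmbt2 only were detected at least once, 1 of the 3 with copies in both places, and 3 of the 6 with genes elsewhere.

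**Figure D1:**
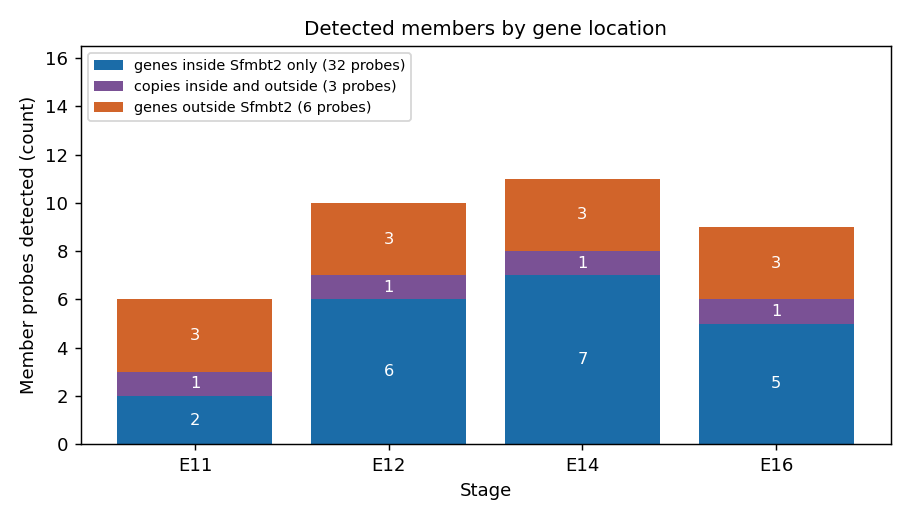
Stacked bars give the number of member probes detected at each stage (x axis, 1 array each), coloured by where RefSeq places their genes. The members with genes inside Sfmbt2 go from 2 at E11 to 6, 7 and 5 at E12, E14 and E16, while the other 4 detected members are present at every stage.

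The other 29 members were not detected on any array. Of 7 probes whose name ends in -5p, 1 was detected (miR-466c-5p, at E14 alone), and of 4 ending in -3p, 2 were (miR-466a-3p and miR-466f-3p, both on all arrays). The opposite arms miR-466a-5p and miR-466f-5p were not detected. Of the 4 probes marked * as the minor arm, 1 was detected, miR-467a-1*, while miR-467a itself was not. For miR-467b and miR-467e the unmarked arm was detected and the starred arm was not. Probes of the 2 arms of a precursor differ in sequence and affinity, so their signals give no ratio between arms.

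Among the members with genes inside Sfmbt2, miR-669f was the only one besides miR-466a-3p to be detected on all 4 arrays. Its deposited signal was 82.0 ± 7.7 at E11, 197.9 ± 15.8 at E12, 170.1 ± 13.3 at E14 and 126.4 ± 10.9 at E16. It was thus lowest at E11 and highest at E12. miR-466a-3p had signals of 29.9 ± 5.3, 70.0 ± 8.1, 42.5 ± 5.8 and 29.6 ± 6.2 in the same order. Its signal was again highest at E12, and those of E11 and E16 lay within their errors of each other. These signals are as deposited and are not scaled between arrays.

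Of the remaining 6 members with genes inside Sfmbt2, 4 were not detected at E11 and were detected at E12. miR-669a, encoded by 12 gene copies within Sfmbt2, had signals of 50.1 ± 7.3 at E12, 39.0 ± 5.7 at E14 and 36.3 ± 6.4 at E16. miR-467b had 48.5 ± 7.3, 36.7 ± 5.7 and 21.5 ± 4.7 at these stages. Among the stages that detected them both were highest at E12 and lowest at E16, although for miR-669a E14 and E16 lay within their errors. miR-467a-1* was detected at E12 (21.2 ± 5.0) and E14 (12.6 ± 3.8) only. miR-467e was detected at E12 (17.3 ± 4.8) and E16 (13.4 ± 4.4) but not at E14. The last 2 had another course, as miR-466c-5p (16.5 ± 3.9) and miR-466g (16.4 ± 2.8) were detected at E14 alone.

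The 3 detected members with genes outside Sfmbt2 were present on every array and had their highest signal at E14. miR-467f had signals of 51.9 ± 6.2 at E11, 44.3 ± 7.2 at E12, 132.5 ± 11.0 at E14 and 60.5 ± 7.4 at E16. miR-466i had 17.0 ± 3.8, 16.7 ± 4.8, 73.1 ± 7.4 and 23.9 ± 4.8. On these deposited signals E11 and E12 lay within their errors for both, and E14 stood above every other stage. The scaling described below narrows the gap between E11 and E14. On the log2 scale miR-467f then stood at -2.27 at E11 and -1.99 at E14, and miR-466i at -3.88 and -2.85. miR-669n had 11.1 ± 3.6, 21.3 ± 5.0, 48.6 ± 6.1 and 32.7 ± 6.3, so that E14 was highest and E11 lowest. miR-466f-3p, with copies inside and outside Sfmbt2, was likewise highest at E14 and lowest at E12. Its signals were 14.0 ± 2.6, 7.46 ± 2.4, 38.7 ± 3.8 and 13.8 ± 2.5. Of all 197 miRNAs detected on all arrays, 15.2% were highest at E14 after scaling (36 of 197, or 18.3%, on the deposited signals). Among the 6 members this held for 4 on either scale. The other 2, miR-669f and miR-466a-3p, were highest at E12, as were 36 of all 197 after scaling (18.3%) and 39 on the deposited signals (19.8%).

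**Figure D2:**
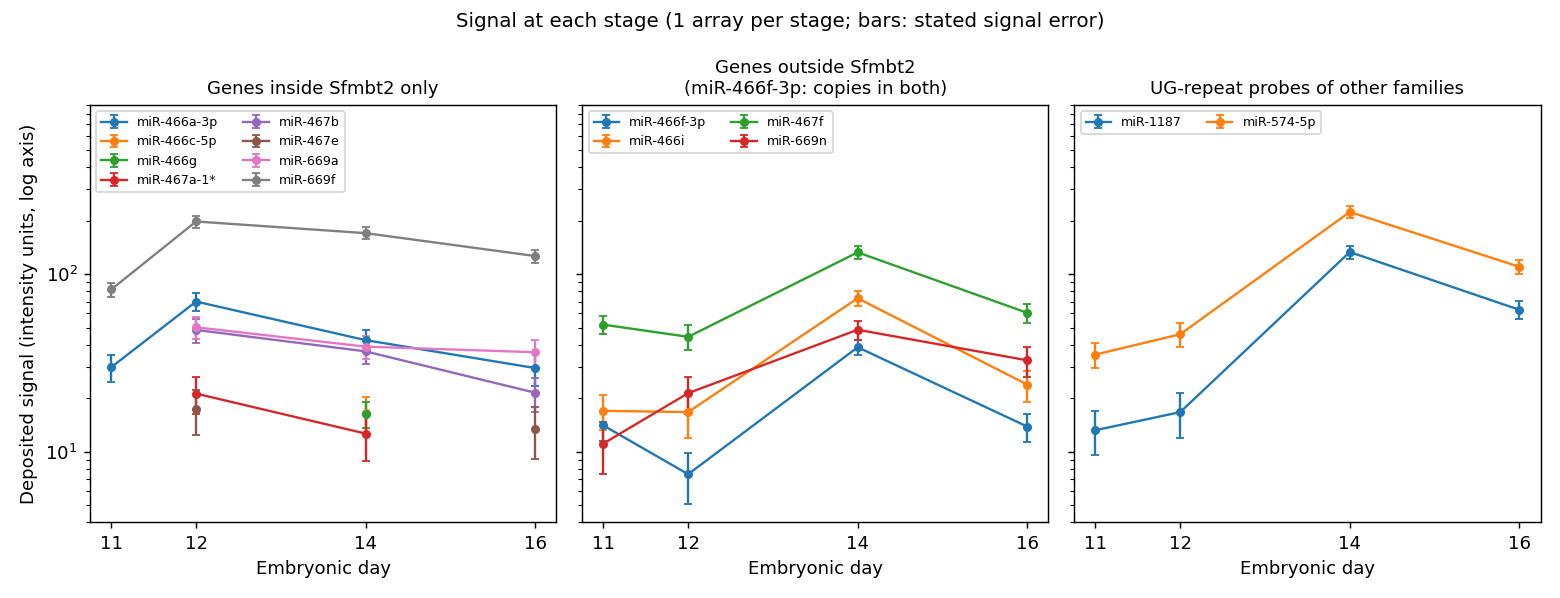
Deposited signal (log axis, intensity units, not scaled between arrays) against embryonic day, with the stated signal error as bars and no point where a miRNA was not detected; the points of miR-466c-5p and miR-466g at E14 overlap. In the left panel miR-669f and miR-466a-3p are highest at E12 (197.9 and 70.0), and in the middle and right panels all lines are highest at E14.

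Differences between stages were then taken on the log2 scale, later minus earlier, after each array was set to its own 75th percentile among the 197 miRNAs that every array detected. A difference was counted from 2-fold, which is a rule of size only. That percentile was higher by 0.67, 0.41 and 0.36 at the steps from E11 to E12, E14 and E16, and by 1.44 over all. A deposited signal that stayed level therefore appears as a negative difference.

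From E11 to E12 the 2 members inside Sfmbt2 that could be compared were higher, and those outside it were mixed. miR-669f was 1.52-fold higher at E12 (log2 0.60 ± 0.18) and miR-466a-3p 1.47-fold (0.56 ± 0.30), and both stayed positive over 6 scalings (0.42 to 1.27 and 0.38 to 1.23). miR-467f was 1.86-fold lower (-0.90 ± 0.29), miR-466i was at -0.69 ± 0.53, and miR-669n, at 0.27 ± 0.58, lay within its error of 0 and of the 2 members inside Sfmbt2. Unscaled, miR-669n was at 0.94. On the deposited signals miR-467f was at -0.23 and miR-466i at -0.02, each within its error. miR-466f-3p was 2.99-fold lower (-1.58 ± 0.53; -0.91 on the deposited signals). Past 2-fold, 0 of the 6 members measured at both ends of this step were higher and 1 was lower, where all miRNAs gave 9.45% and 8.46%. Without scaling 2 of 6 were higher and 0 lower (22.9% and 0.995% of all miRNAs). Their median was -0.21, beside -0.20 over all 201 miRNAs.

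The 4 members newly detected at E12 all had genes inside Sfmbt2, and 20 of all 696 probes (2.87%) were newly detected at E12. Most members not yet detected at E11 had this location, since 32 of the 41 probes did and 2 of these 32 were detected at E11. Against the lowest detected signal of the E11 array, miR-669a was at least 5.75-fold higher, miR-467b at least 5.56-fold, miR-467a-1* at least 2.43-fold and miR-467e at least 1.98-fold (9.15, 8.84, 3.87 and 3.15 on the deposited signals). These bounds, like those of the later steps, are nominal, since a probe with a larger error can go undetected above that signal. No member was lost between E11 and E12.

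Among members detected at both E12 and E14, the signs differed by location. All 5 members inside Sfmbt2 that were detected at both stages were lower at E14. They were miR-467a-1* (2.23-fold, -1.16 ± 0.55), miR-466a-3p (2.19-fold, -1.13 ± 0.26), miR-467b (1.75-fold, -0.81 ± 0.31), miR-669a (1.71-fold, -0.77 ± 0.30) and miR-669f (1.55-fold, -0.63 ± 0.16). All 3 outside it were higher at E14, miR-466i by 3.29-fold (1.72 ± 0.44), miR-467f by 2.25-fold (1.17 ± 0.26) and miR-669n by 1.71-fold (0.78 ± 0.38). miR-466f-3p, with 3 of its 4 gene copies inside Sfmbt2, was 3.91-fold higher (1.97 ± 0.48). The ranges of these 5 members inside (-1.16 to -0.63) and 3 outside (0.78 to 1.72) did not overlap. Neither range holds miR-466f-3p, nor miR-466c-5p and miR-466g, which lie inside Sfmbt2 and were detected at E14 but not at E12. Outside Sfmbt2, miR-466i and miR-467f share a run of 13 bases, and hybridisation to each other's probe was not tested. For the 5 inside it no mature sequence was at hand. How alike these 5 are was therefore not checked, and they may not be separate observations. Each sign of the 9 members detected at both stages was the same under the 6 scalings, the deposited signals included. Quantile normalization and the authors' table gave the same values for the members, so these are 5 distinct scalings. The difference between the 2 locations was not tested, as there is 1 array per stage.

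Over all 212 miRNAs 67.9% were lower and 32.1% higher at E14, with a median of -0.40, so a negative difference was common at this step. The median of the 5 members inside Sfmbt2 was -0.81, and that of the 3 outside was 1.17. On the deposited signals these medians were -0.40 and 1.58, beside 0.01 over all miRNAs. There the differences of miR-467a-1*, miR-467b, miR-669a and miR-669f are -0.75, -0.40, -0.36 and -0.22. For miR-467b the stated error is 0.31, for miR-669a 0.30 and for miR-669f 0.16, so these 3 exceeded their errors by little. Past 2-fold, 3 of 9 members were higher (all miRNAs 12.7%) and 2 of 9 lower (15.1%). Unscaled, 4 of 9 passed upward and 0 downward (17.0% and 4.25% of all miRNAs).

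**Figure D3:**
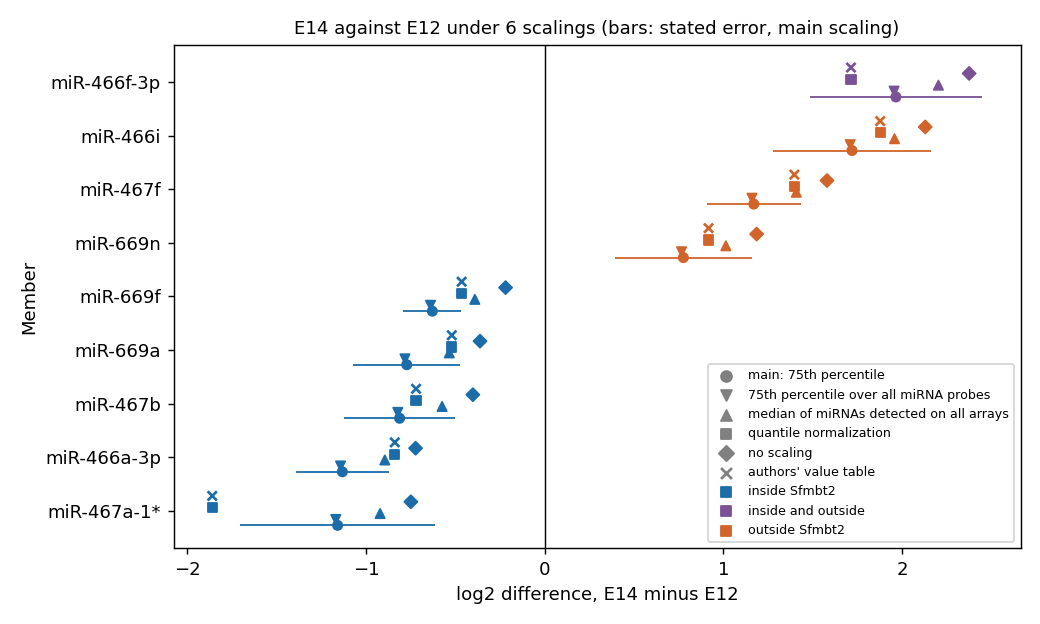
The log2 difference E14 minus E12 (x axis) of the 9 members detected at both stages, with 1 marker per scaling, colour for gene location, and the combined stated error as a bar on the main scaling. The 5 members inside Sfmbt2 lie below 0 and the 3 outside it, with miR-466f-3p, above 0 under all 6 scalings.

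Markers of the tissue layers were read beside this step. All 6 detected mesenchymal markers were lower at E14, with miR-199a-3p at -1.31, miR-214 at -0.999, miR-199a-5p at -0.66, miR-140 at -0.64, miR-199b* at -0.60 and miR-143 at -0.08. On the deposited signals 5 of the 6 were lower, with a median of -0.24. A lower value was common, at 67.9% of all miRNAs after scaling. Of 7 epithelial markers 6 were higher, miR-205 at 0.27, and miR-203 was lower at -0.58, with the same signs on the deposited signals. From E14 to E16, where all 8 members that could be compared were lower, the markers were mixed. There 3 mesenchymal markers were lower and 3 higher (1 and 5 on the deposited signals), and all 7 epithelial markers were higher. The part of the tissue layers' shares in the members' differences was not tested.

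The detected set also differed at E14. miR-467e was no longer detected, with a nominal bound of at least 4.03-fold lower than at E12 (3.04 on the deposited signals). miR-466c-5p and miR-466g were newly detected, nominally at least 1.67-fold and 1.66-fold higher than at E12 (2.22 and 2.20 on the deposited signals). Their E12 signals are not known, and a probe with a larger error can go undetected above the lowest detected signal. No direction is therefore given for these 2 members inside Sfmbt2. Of all probes 5.32% were newly detected at E14.

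A course with its maximum at E14 was not particular to these families. Of 210 miRNAs detected at E12, E14 and E16, 24 were at least 2-fold higher at E14 than at E12 and at least 2-fold lower again at E16. They were 3 members (miR-466f-3p, miR-466i and miR-467f), the 2 UG-repeat probes of other families and 19 others, and 11 miRNAs exceeded every member in the first of these differences. The UG-repeat probes are described because of their sequence. miR-574-5p had signals of 35.2 ± 5.5, 45.8 ± 7.2, 223.8 ± 17.3 and 110.0 ± 9.9, and miR-1187 of 13.2 ± 3.7, 16.7 ± 4.8, 133.1 ± 10.8 and 62.9 ± 7.4. Both were highest at E14, like miR-669n, with which they share a run of 8 bases each. From E12 to E14 miR-574-5p was 3.68-fold higher (1.88 ± 0.25) and miR-1187 6.00-fold (2.59 ± 0.43). miR-574-3p, from the other arm of the miR-574 precursor and without that repeat, was detected at E14 alone (13.1 ± 2.7). All members whose sequence was at hand lie outside Sfmbt2. Repeat sequence and location therefore cannot be told apart here, and hybridisation of one repeat to another's probe was not tested.

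From E14 to E16 all 8 members detected at both stages were lower, under each of the 6 scalings. Those outside Sfmbt2 were miR-466i (3.92-fold, -1.97 ± 0.32), miR-467f (2.80-fold, -1.49 ± 0.21) and miR-669n (1.90-fold, -0.93 ± 0.33). miR-466f-3p was 3.58-fold lower (-1.84 ± 0.30). Inside Sfmbt2 the differences were -1.13 ± 0.39 for miR-467b, -0.88 ± 0.36 for miR-466a-3p, -0.78 ± 0.17 for miR-669f and -0.46 ± 0.33 for miR-669a. The last was -0.10 on the deposited signals, within its error. The members' median was -1.03, beside -0.06 over all 231 miRNAs, and -0.67 beside 0.30 on the deposited signals. Past 2-fold, 4 of 8 were lower and 0 of 8 higher, where all miRNAs gave 13.4% and 7.36%. Without scaling 3 of 8 were lower and 0 higher (12.1% and 15.6%). The UG-repeat probes miR-1187 (-1.44 ± 0.21) and miR-574-5p (-1.38 ± 0.17) were lower at E16 as well. miR-466c-5p, miR-466g and miR-467a-1* were no longer detected, with nominal bounds of at least 3.25-fold, 3.21-fold and 2.48-fold lower (2.54, 2.51 and 1.94 on the deposited signals). In the other direction miR-467e was detected again, nominally at least 1.84-fold higher (2.35 on the deposited signals).

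**Figure D4:**
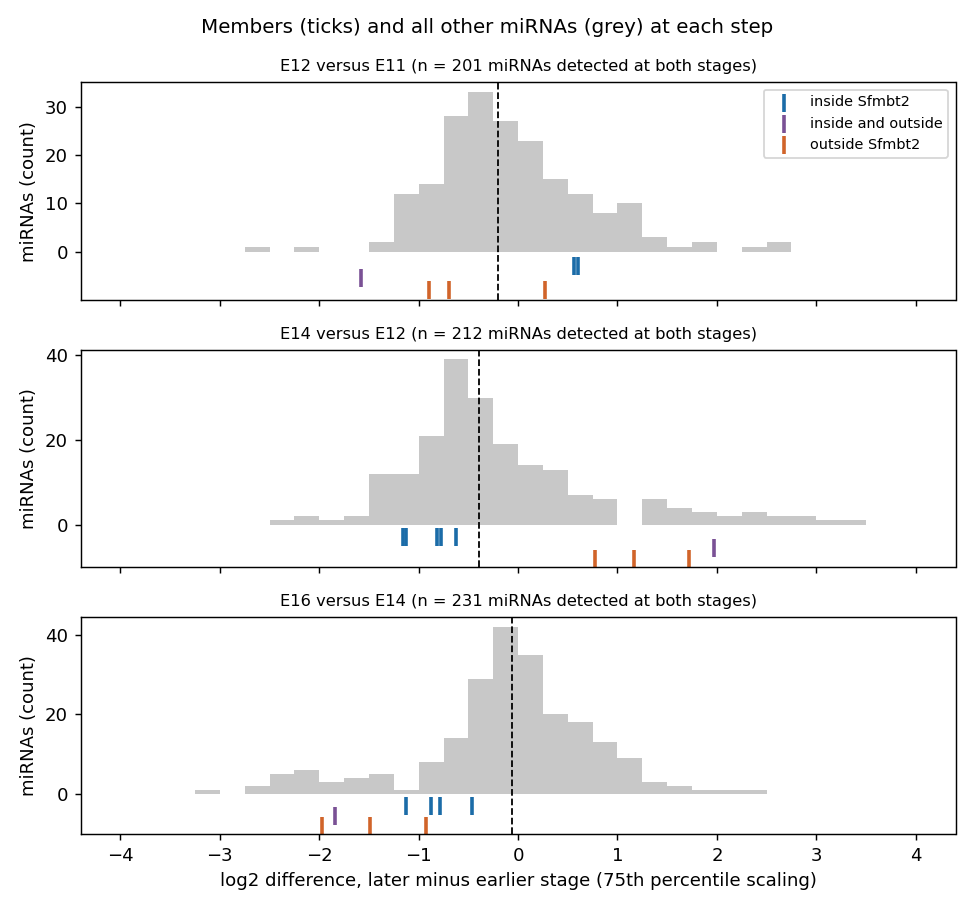
For each step, the histogram gives the log2 differences of the other miRNAs detected at both stages (y axis, count), the dashed line the median of all of them, and the coloured ticks the members by gene location. The ticks of the members inside and outside Sfmbt2 lie on opposite sides of 0 at E14 versus E12, and all ticks lie below 0 at E16 versus E14.

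Between the ends of the series the members depended on the scaling. After scaling, miR-466a-3p was at -1.45 ± 0.40, miR-466f-3p at -1.46 ± 0.37, miR-467f at -1.21 ± 0.25, miR-466i at -0.94 ± 0.43, miR-669f at -0.81 ± 0.18 and miR-669n at 0.12 ± 0.54. On the deposited signals the same 6 stood at -0.02, -0.02, 0.22, 0.49, 0.63 and 1.56. Past 2-fold, 3 of 6 were lower (37.6% of all miRNAs) and 0 of 6 higher (13.7%), and without scaling 0 were lower (4.39%) and 1 higher (44.9%). The median of -1.08 turned to 0.36 without scaling, beside -0.74 and 0.69 over all 205 miRNAs. These counts and medians leave out members detected at 1 end only. Detected at E16 but not at E11 were miR-669a, miR-467b and miR-467e, all inside Sfmbt2. Nominal bounds were at least 2.45-fold higher for miR-669a and 1.45-fold for miR-467b (6.62 and 3.92 on the deposited signals). For miR-467e the only bound was 2.44-fold, on the deposited signals. No direction from E11 to E16 is therefore given for the families. The stage of the highest signal, E12 or E14, was the same under the 6 scalings for the 6 members detected on all arrays. How far it stood above E11 did depend on the scaling. After scaling, miR-467f was at -2.27 at E11 and -1.99 at E14, and miR-466f-3p at -4.15 and -3.77. The deposited signals at these stages were 51.9 and 132.5 for miR-467f, and 14.0 and 38.7 for miR-466f-3p.

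The labelled tissue was checked on its markers. All 7 epithelial probes were detected from E12 on (6 at E11), miR-205 with signals of 1241, 2190, 3517 and 5317. Of 7 mesenchymal probes 6 were detected at every stage, and miR-145 at none. The 4 muscle probes and the 9 probes of the miR-290 and miR-302 clusters, known from pluripotent cells, were not detected on any array. Of the erythroid markers miR-451 was detected at every stage and miR-144 at E16. Of the 2 leukocyte probes miR-223 was detected from E12 on and miR-142-3p at E16. Of 4 neural probes 2 were detected, miR-128 at every stage and miR-137 at E12 and E16, with signals of 59.2 ± 7.6 and 47.5 ± 6.8. The stages that detected miR-137 are also those that detected miR-467e. After scaling, miR-128 was at 0.77 from E11 to E12, -0.57 from E12 to E14 and -0.18 from E14 to E16. miR-124 and miR-9 were never detected and so show no course. miR-467e itself lay near the detection limit at both stages (17.3 ± 4.8 and 13.4 ± 4.4). The part of neural tissue in these signals was not tested.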

How the data were processed

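Each array file holds, per the file headers, the total gene signal as an intensity for 718 features (696 miRNA probes and 22 controls), its error and a detection flag. Undetected features are written as 0.1. The authors' series table holds intensities scaled between arrays on a linear scale and served as an alternative. Neither the array software nor its background correction is named in the labels or files.

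Control features were left out. Log2 signals were taken relative to each array's 75th percentile over the miRNAs that every array detected. A difference needed detection at both stages and was counted from 2-fold. Every member detected at least once was named. The median stated error of a detected signal was 9.04% to 9.55%, which covers measurement on 1 array only.

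Members were matched to RefSeq genes (GRCm38.p6) by symbol or synonym, miR-466a through the unlettered symbol Mir466, and called inside where the gene lies within the span of Sfmbt2. Mature sequences were matched by exact name, or by an armless name whose gene has 1 mature entry. The members and lists were chosen with earlier results of these data known. Alternatives were 5 other scalings (quantile normalization and the authors' table coincide for the members), detection at 5 times the stated error, and 1.5-fold. The scaling and difference steps were tested on simulated data with the same relative noise for every probe and the same detection on all arrays. That test therefore does not cover members near the detection limit or changes in detection. Python 3.11.15, numpy 2.4.6 and pandas 2.3.3 were used.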

Additional observations from a re-analysis of the deposited data

How the results depend on the processing

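The arrays number 1 per stage, and most members lie near the detection limit. Of 102 recomputed values of the counts and medians, 73 stayed within the tolerance used (1.5 times for counts, the stated error for medians). From E11 to E12 the members' median was 0.46 without scaling and 0.56 at the stricter detection. The count higher was 2 without scaling (22.9% of all miRNAs) and 1 from 1.5-fold, and the count lower was 2 with the percentile over all probes, 0 without scaling, 0 at the stricter detection and 3 from 1.5-fold. From E12 to E14 the median was -0.22 without scaling. The count higher was 1 at the stricter detection. The count lower was 0 with median scaling and without scaling, 1 with quantile normalization, with the authors' table and at the stricter detection, and 5 from 1.5-fold. From E14 to E16 the median was -0.67 without scaling, and the count lower was 2 at the stricter detection and 7 from 1.5-fold. From E11 to E16 the median was -0.56 with median scaling and 0.36 without scaling, where miR-467f turned to 0.22. The count higher was 1 without scaling, and the count lower was 0 with median scaling and without scaling and 5 from 1.5-fold. Fewer members enter at the stricter detection, and a constant shift of an array moves all members together. At 5 times the stated error 5 members remained at E12 and 5 at E16. Only miR-669f and miR-467f then remained on all arrays, the first highest at E12 and the second at E14, which leaves 1 member highest at E14. For E14 versus E12 all 4 remaining members inside Sfmbt2 stayed negative and the 1 remaining outside it, miR-467f, stayed positive; this check by location was chosen after seeing the data, and its other alternatives gave 5 and 3 as reported. No paired analysis was possible because each stage has 1 array.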
